A study of Canis lupus familiaris with 11 samples.

Results

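*HNRNPL* (ENSCAFG00000005652) and *HNRNPR* (ENSCAFG00000013308) encode heterogeneous nuclear ribonucleoproteins, and every exon bin of both genes was taken from the mRNA-Seq table of canine osteosarcomas, which gave 2 of its 24390 genes and 23 of its 217945 exon bins. The bins were taken by gene identifier. An exon bin is a stretch of exon shared by 1 set of annotated transcripts, so that bins of a gene do not overlap. In the CanFam3.1 assembly, *HNRNPL* spans chromosome 1, 114267210 to 114278780, and *HNRNPR* chromosome 2, 76077031 to 76105016, both on the plus strand, so that bin numbers run from 5′ to 3′. *HNRNPL* has 13 bins and *HNRNPR* has 10.

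The study sequenced poly(A) RNA of osteosarcomas in order to find exons of uniform expression for the normalization of RT-qPCR data. Its authors picked exons of both genes for this purpose. For *HNRNPL* these are bins 4, 5 and 7, of which 4 and 5 form a neighbour pair, and for *HNRNPR* bins 6, 7, 8 and 9, with the pair 7 and 8. Since they were picked for a low *CV* (standard deviation over mean) in a set that holds these libraries, their *CV* is given as a description. For the same reason, p-values for the ratio of a picked pair to its gene sum are not independent of that choice.

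The 8 tissues came from a Boxer (1033), a Leonberger (1091), a dog of mixed breed (0320), a Landseer (0460), a Great Pyrenees (DOS-119), a Great Dane (DOS-126), an English Mastiff (DOS-127) and a Golden Retriever (DOS-71). The dogs were between 4 years 6 months and 12 years 6 months old at diagnosis, and sample 1033 is labelled as a metastasis in the lung. The 3 cell lines are primary cultures of 1 tumour each, from a German Shepherd (OSCA-30), a Great Pyrenees (OSCA-32) and a Saint Bernard (OSCA-40) aged 5 years 8 months to 8 years 7 months. All dogs carried a spontaneous tumour that had not been treated with cytotoxic drugs when sampled, no genotype was set by the study, and the treatment codes of the labels (CARBO, AMP, EUTH at Dx, SOC, PALL) were not used for grouping. The RNeasy Fibrous Tissue Mini Kit served for RNA of the first 4 tissues, TRIzol for the 4 DOS tissues and the RNeasy Mini Kit for the cell lines, so that kit and kind of sample cannot be told apart. Tumour tissue holds stromal and other cells besides tumour cells. The identifiers of cell type markers could not be paired with symbols, so the kinds of sample were not checked against markers here.

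hnRNP proteins coat newly made transcripts and influence which exons are kept. HNRNPL binds CA-rich stretches of RNA and can repress or promote exons near its site, and in human cells it limits its own expression through a poison exon whose inclusion leads to decay of the transcript. HNRNPR is a relative of SYNCRIP with roles in splicing, RNA transport and stability. The files give no coordinates or lengths of single bins, so that it is not known which bin, if any, holds a poison exon. The share of a bin in its gene sum also follows its length, so levels were compared between libraries and not between bins or between the 2 genes.

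Libraries held between 3123757 (DOS-71) and 24902774 (DOS-119) reads on exon bins, and 3471461 in OSCA-32. *HNRNPL* was covered by at least 1680 reads in every library. Its bins held between 0 (bin 1 in DOS-71 and OSCA-32) and 1790 reads, and bins of *HNRNPR* between 20 and 950. DOS-71 and OSCA-32, the 2 shallowest libraries, stood apart from the others in the same way. When each bin that has a neighbour on both sides was set against the mean of these neighbours (log2, reads + 0.5, a measure chosen after the data were seen), both libraries lay outside the range of the other 9 libraries on the same side in 22.6% of 69386 bins. This was so for 7 of 11 bins in *HNRNPL* and 1 of 8 in *HNRNPR*. Values without these libraries, added after the data were seen, are therefore given beside the results that rest on them.

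The gene sum (sum of the deposited bin values) of *HNRNPL* in the tissues was 4068 in 1033, 5359 in 1091, 3899 in 0320, 5769 in 0460, 4516 in DOS-119, 6134 in DOS-126, 3487 in DOS-127 and 5037 in DOS-71. In the cell lines it was 3717 in OSCA-30, 4714 in OSCA-32 and 4032 in OSCA-40, all inside the range of the tissues. The mean was 4784 ± 944 (SD, n = 8) in tissues and 4154 ± 510 (n = 3) in cell lines. On the log2(gene sum + 1) scale the cell lines differed by -0.19 (SE 0.26, limma, adjusted p = 0.665). The gene thus showed no difference between the kinds of sample beyond the spread between libraries.

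*HNRNPR* lay between 1311 (0320) and 1786 (1091) in the tissues, with a median of 1662. The other tissues read 1683 in 1033, 1519 in 0460, 1682 in DOS-119, 1578 in DOS-126, 1642 in DOS-127 and 1715 in DOS-71. Of the cell lines, OSCA-30 (1363) and OSCA-40 (1579) fell inside this range and OSCA-32 (2471) lay above it. The log2 difference was 0.12 (SE 0.24, limma, adjusted p = 0.772), and it turned to -0.12 without DOS-71 and OSCA-32 and to -0.13 without OSCA-32 alone.

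**Figure D1:**
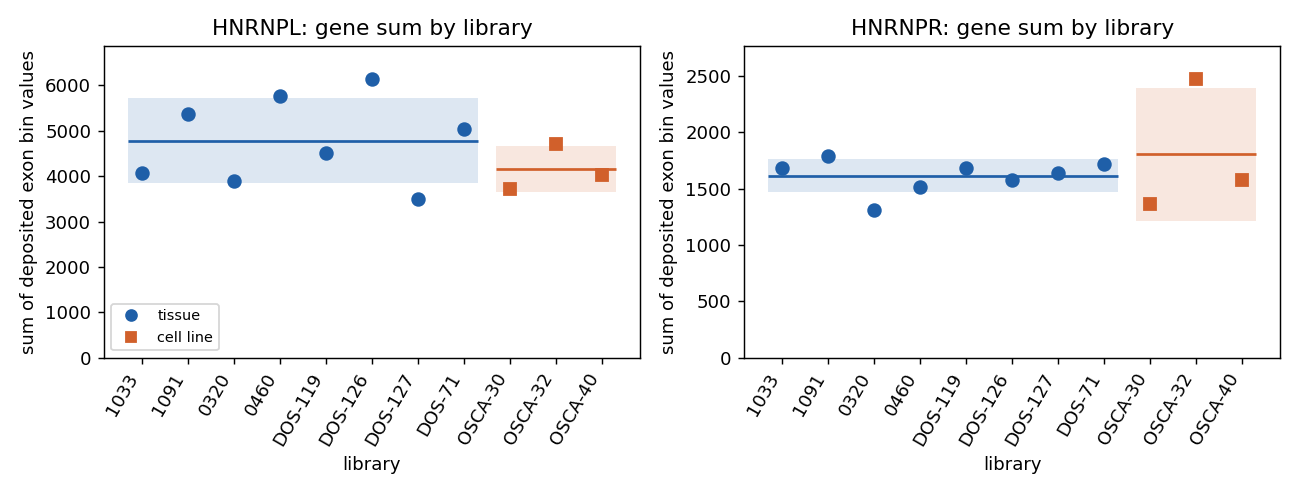
Gene sums of *HNRNPL* and *HNRNPR* in each library (x axis), as the sum of deposited exon bin values (y axis, linear, from 0). Circles are tissues and squares cell lines; lines give the group mean and bands ± 1 SD (n = 8 and n = 3). The groups overlap in both genes, and OSCA-32 is the highest library of *HNRNPR* with 2471.

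Neither gene passed the threshold in limma (0 of 2), while 17% of all 13858 genes tested did. Neither had an unadjusted p under 0.05 in limma or in edgeR and DESeq2 on the recovered reads, where 31.8%, 29.9% and 33.4% of genes did. The deposited scaling matters for the sign, because the median log2 difference over all genes was -0.37 in the deposited values and -0.10 after median-of-ratios scaling. Relative to this shift both genes lay above the median gene. After median-of-ratios scaling, the log2 difference was 0.09 for *HNRNPL* and 0.39 for *HNRNPR* (limma, adjusted p = 0.848 and 0.301). Between the isolation kits of the tissues, the log2 difference (TRIzol minus RNeasy Fibrous) was -0.0029 (SE 0.31) for *HNRNPL* and 0.08 (SE 0.26) for *HNRNPR*. Neither passed (0 of 2, also in edgeR and DESeq2, lowest unadjusted p in limma 0.761). Of all genes, 0.00714% passed in limma and 5.49% had an unadjusted p under 0.05. Among the tissues, the lane label in the column headers follows the kit. DOS-126 and DOS-71 carry the same index and lane label, so the label does not identify a run.

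The ratio of both genes within a library does not depend on scaling. The log2 ratio of the gene sum of *HNRNPR* to that of *HNRNPL* was lowest in DOS-126 (-1.96) and highest in OSCA-32 (-0.93). It averaged -1.55 ± 0.30 (SD, n = 8) in tissues and -1.24 ± 0.27 (n = 3) in cell lines. The difference of 0.30 was within what regrouping of the libraries gives (exact permutation test, two-sided, with every choice of 3 among the 11 libraries, p = 0.152, adjusted over 3 ratios p = 0.164, smallest possible p = 0.00606). Without OSCA-32 it was 0.15.

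Within both genes, reads were spread unevenly over the bins, and the profile differed between libraries as a gradient along the transcript. In *HNRNPL*, bin 10 took the largest share of the gene sum in all tissues except DOS-71, between 14.6% (DOS-119) and 17.7% (DOS-126). In DOS-71, bin 3 was larger, with 15.8% against 14.6% for bin 10. In the cell lines bin 3 was also the largest, with 14.5% in OSCA-40 to 15.3% in OSCA-30. In *HNRNPR*, the last bin, 10, was the largest in every library. It held 21.0 to 32.1% in the tissues and 19.1%, 22.7% and 18.2% in OSCA-30, OSCA-32 and OSCA-40.

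**Figure D2:**
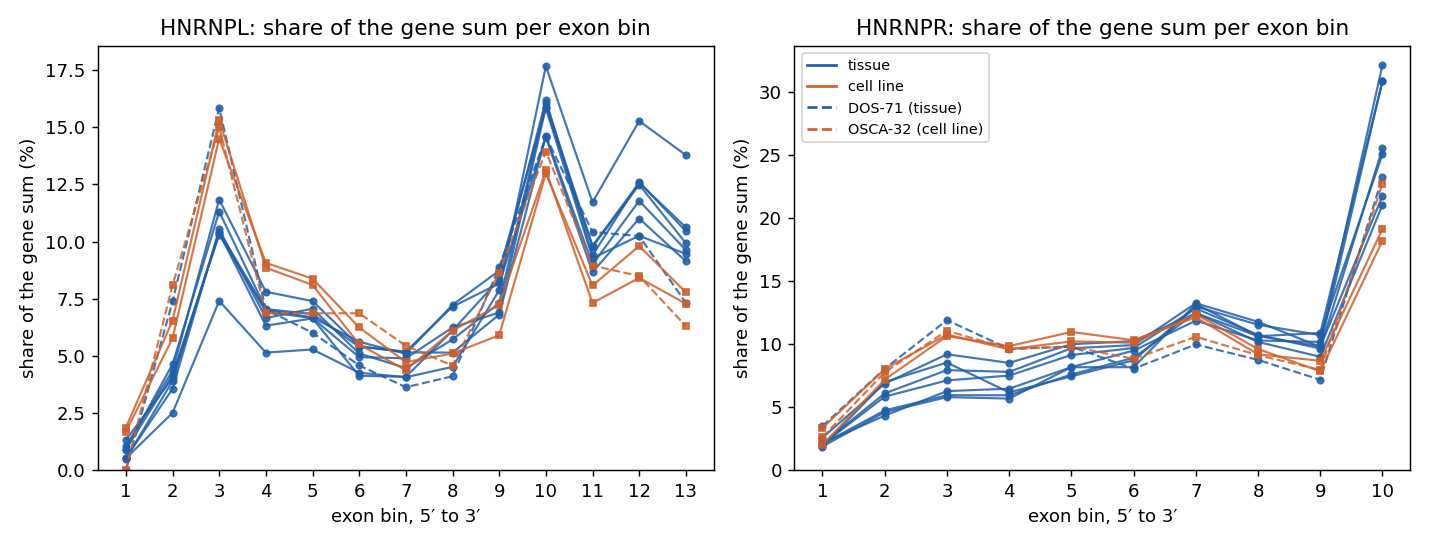
Share of the gene sum (y axis, percent) held by each exon bin (x axis, numbered from 5′ to 3′), 1 line per library. Tissues are blue and cell lines orange, and broken lines mark DOS-71 and OSCA-32. In bin 3 of *HNRNPL* the cell lines hold 14.5 to 15.3%, above the tissues other than DOS-71, in bin 10 of *HNRNPR* OSCA-30 and OSCA-40 lie below all tissues, and bin 1 of *HNRNPL* is at 0 in the 2 libraries with broken lines.

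The gradient was measured as the log2 ratio of the summed last bins to the summed first bins, 6 each in *HNRNPL*, where the middle bin was left out, and 5 each in *HNRNPR*. For *HNRNPL* it was 0.44 (DOS-71) to 1.50 (DOS-126) in tissues and 0.10 (OSCA-30), 0.22 (OSCA-32) and 0.12 (OSCA-40) in cell lines, so the groups did not overlap. For *HNRNPR* it was 0.42 (DOS-71) to 1.50 (DOS-126) in tissues. The cell lines had 0.55, 0.53 and 0.47 in the same order, which is above DOS-71 and below the other 7 tissues. As in *HNRNPL*, the groups did not overlap in the mean of this ratio over 41 other genes, described next. How many single genes separate in this way was not determined.

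The same ratio was averaged in each library over 41 other genes with a known strand, all named in the study's lists of stable exons. This slope was 0.57 to 1.37 in tissues and 0.22 to 0.29 in cell lines. Within the 8 tissues, the gradient of *HNRNPL* rose with the slope of the other genes (Pearson's *r* = 0.879, Spearman's *ρ* = 0.929, exact permutation p = 0.000347 and 0.00223, adjusted over 2 genes p = 0.000694 and 0.00223). Without DOS-126 and DOS-71, the tissues farthest from the median slope, *r* was 0.892 (n = 6, exact permutation p = 0.0222). For *HNRNPR*, *r* was 0.919 and *ρ* 0.976 (n = 8, exact permutation p = 0.00126 and 0.000397, adjusted p = 0.00126 and 0.000794), and *r* was 0.957 without the same 2 tissues (n = 6, exact permutation p = 0.00972). In both genes, tissues with a higher slope tended to have a higher gradient, but the order was not strict. For example, 0460 had a higher slope than 1091 (1.23 against 1.15) and a lower gradient in both genes. Within the 4 tissues of each lane label, the gradient of *HNRNPL* was 0.83 to 0.94 in lane label 6 and 0.44 to 1.50 in lane label 7, and that of *HNRNPR* 1.11 to 1.49 and 0.42 to 1.50. The cell lines of lane label 6 had 0.10 and 0.22 in *HNRNPL* and 0.55 and 0.53 in *HNRNPR*, so both genes stood lower in cell lines than in tissues within this label. The cell line of lane label 7 had 0.12 in *HNRNPL*, below the tissues of this label. In *HNRNPR* it had 0.47, inside their range. Libraries of 1 lane label are too few for a correlation of their own.

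**Figure D3:**
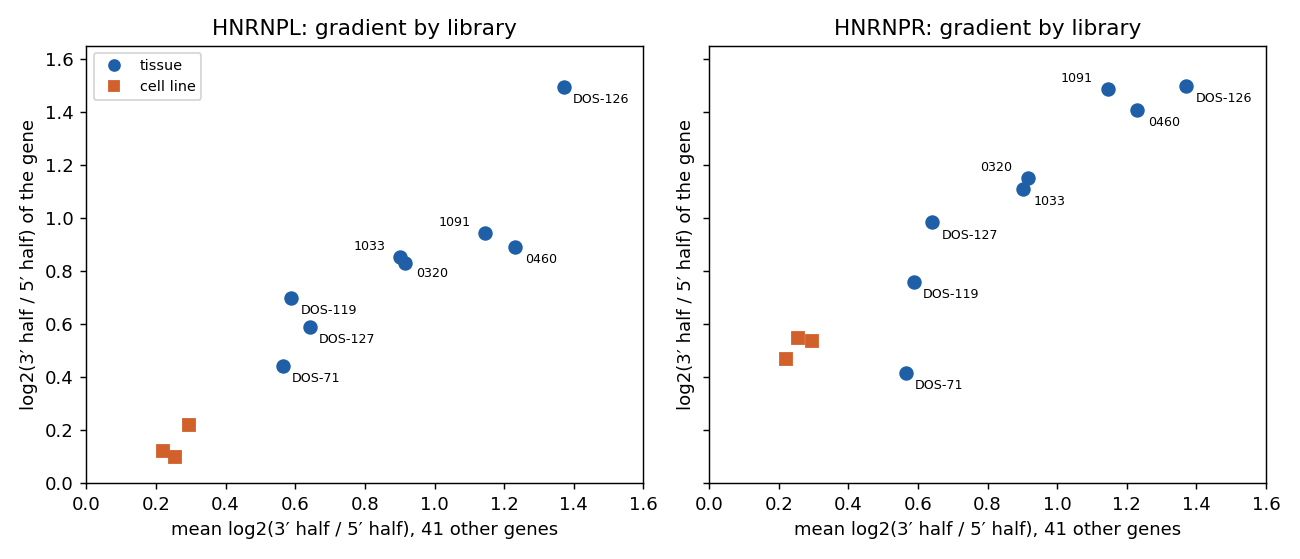
Log2 ratio of the 3′ to the 5′ bins of *HNRNPL* (left) and *HNRNPR* (right) on the y axis against the mean of the same ratio over 41 other genes on the x axis, 1 point per library. Circles are tissues and squares cell lines. In the tissues the values tend to rise together from DOS-71 to DOS-126, and the 3 cell lines lie at slopes of 0.22 to 0.29.

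Use of single bins was compared between tissues and cell lines by the log odds of a bin in its gene sum, log2((bin + 1) / (rest of the gene + 1)). In *HNRNPL* the difference (cell line minus tissue) fell from 0.74 in bin 2 through 0.53 in bin 3 and 0.09 in bin 7 to -0.48 in bin 12 and -0.53 in bin 13. In *HNRNPR* it fell from 0.55 in bin 3 and 0.48 in bin 4 through -0.09 in bin 7 to -0.50 in bin 10. All 23 bins passed the filter on low values. None passed the adjusted threshold in limma (0 of 13 in *HNRNPL* and 0 of 10 in *HNRNPR*), against 7% of 99831 bins tested over all genes. At an unadjusted p under 0.05 there were 6 of 13 bins of *HNRNPL* and 3 of 10 of *HNRNPR*, against 31.7% of all bins. The lowest adjusted p was 0.0751 for bin 12 of *HNRNPL* and 0.106 for bin 4 of *HNRNPR* (limma).

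The count of 0 depended on the fit. When limma weighted the libraries by their spread, bins 2, 3, 12 and 13 of *HNRNPL* and bins 3 and 4 of *HNRNPR* passed (4 and 2 bins), with 15.9% of all bins past the threshold. The same 6 bins passed when DOS-71 was left out, with adjusted p of 0.0252 to 0.0400 (limma), as did 17.6% of all bins. Among bins with a mean of at least 50, bin 12 of *HNRNPL* passed (limma, adjusted p = 0.0412), as did 17% of them. With diffSplice and with diffSpliceDGE on the recovered reads no bin of either gene passed. Few bins of the whole table did so in these fits, 271 and 44 of 98962. At an unadjusted p under 0.05, diffSplice had 0 bins of *HNRNPL* and 1 of *HNRNPR* (6.84% of all bins), and diffSpliceDGE had 0 in either gene (2.78%). Without DOS-71 and OSCA-32 together, 0 bins of either gene passed, against 3.98% of all bins. A fit with the lane label as a term kept every sign and gave an adjusted p of at least 0.0850 in every bin (limma).

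When the slope of the 41 other genes entered as a term, chosen after the data were seen, the difference was -0.05 (SE 0.30) in bin 2 and -0.02 (SE 0.21) in bin 13 of *HNRNPL*. It was -0.18 (SE 0.21) in bin 3 and 0.19 (SE 0.18) in bin 10 of *HNRNPR*, and the lowest adjusted p over the 23 bins was 0.864 (limma). The slopes of tissues and cell lines do not overlap, so this fit also takes up any difference between the kinds of sample that runs with the slope.

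**Figure D4:**
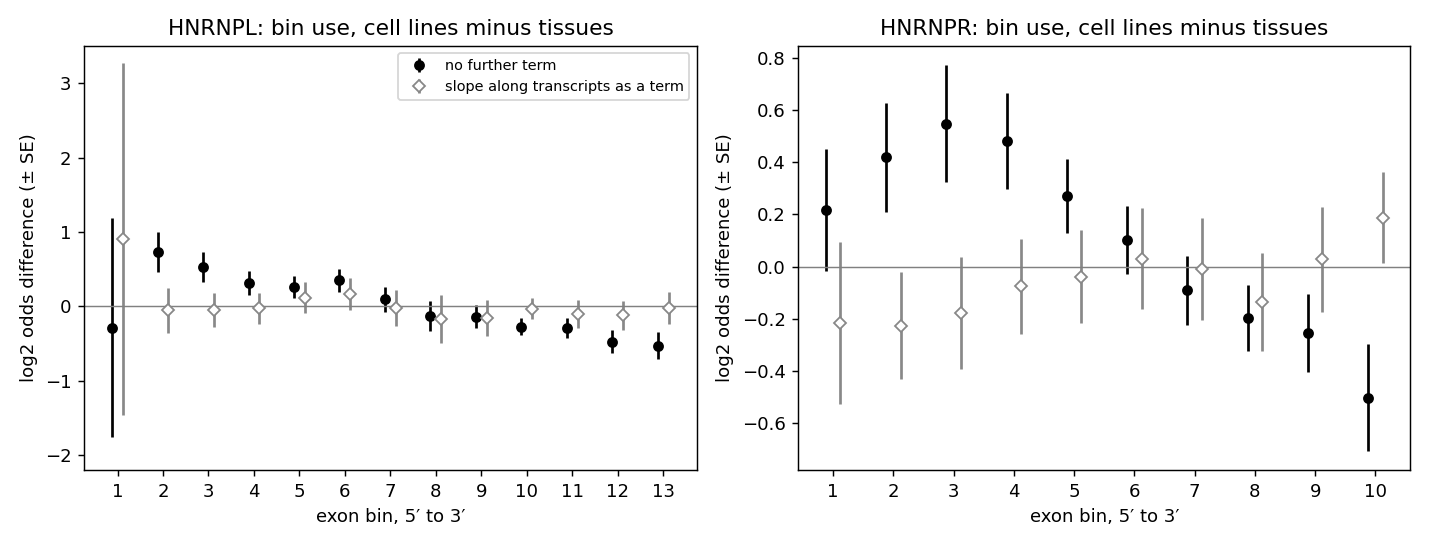
Difference in bin use between the 3 cell lines and the 8 tissues (y axis, log2 odds, cell lines minus tissues, bars ± SE) for each exon bin (x axis, 5′ to 3′). Filled circles come from the fit with no further term and fall from 0.74 in bin 2 to -0.53 in bin 13 of *HNRNPL* and from 0.55 in bin 3 to -0.50 in bin 10 of *HNRNPR*. Open diamonds come from the fit with the slope along transcripts as a term, and no bin passed the threshold in either fit.

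Shares of tissues and cell lines did not overlap in bins 10 and 12 of *HNRNPL* and in no bin of *HNRNPR* (2 of 13 and 0 of 10, against 15.9% of all bins). Bin 12 held 10.2 to 15.3% of *HNRNPL* in the tissues, with a median of 12.1%, and 8.41% in OSCA-30, 8.49% in OSCA-32 and 9.80% in OSCA-40. Without DOS-71 and OSCA-32, 9 bins of *HNRNPL* and 7 of *HNRNPR* did not overlap, against 35.6% of all bins. The bins that still overlapped were 6, 7, 8 and 9 in *HNRNPL* and 1, 6 and 7 in *HNRNPR*, in the middle of the genes apart from bin 1. Between the kits, bin 1 of *HNRNPL* differed by -1.26 (SE 1.17) in log odds, and by 0.088 (SE 0.46) without DOS-71. The other bins of *HNRNPL* differed by -0.32 to 0.18 and those of *HNRNPR* by -0.28 to 0.31 in log odds. None of the 23 passed (limma, lowest adjusted p = 0.777), nor did any bin of the table (0% of 97018). At an unadjusted p under 0.05, limma had 0 of the 23 (5.46% of all bins), diffSplice had bin 1 of *HNRNPL* and 0 of *HNRNPR* (1.17%), and diffSpliceDGE had 0 in either gene (0.534%).

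Of the exons picked by the study, bins 4 and 5 of *HNRNPL* differed in use by 0.31 (SE 0.16) and 0.26 (SE 0.14), and bin 7 by 0.09 (SE 0.16). Bin 4 held 5.14 to 7.80% of the gene sum in tissues and 8.85%, 6.86% and 9.07% in OSCA-30, OSCA-32 and OSCA-40. The pair 4 and 5 made up a log2 ratio to the gene sum of -2.92 ± 0.16 (SD, n = 8) in tissues and -2.65 ± 0.19 (n = 3) in cell lines. It was lowest in DOS-126 (-3.26) and highest in OSCA-40 (-2.52). The difference of 0.27 did not pass after adjustment over 3 ratios (two-sided exact permutation test, p = 0.0242, adjusted p = 0.0727). Over the leave-one-out fits and the fit without both shallow libraries it lay between 0.20 and 0.38. When medians of bins replaced the sums, the difference was 0.17 and passed (exact permutation, adjusted p = 0.0364). This pair was picked for a low *CV* in a set that holds these libraries. With a pair that varies little, the ratio partly mirrors the gene sum, which differed by -0.19 on the log2 scale. The p-values of this ratio are therefore given as a description.

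In *HNRNPR*, bins 6, 7, 8 and 9 differed by 0.10 (SE 0.13), -0.09 (SE 0.13), -0.20 (SE 0.13) and -0.26 (SE 0.15). Bin 7 held 9.97 to 13.2% of the gene sum in tissues and 12.1%, 10.6% and 12.4% in OSCA-30, OSCA-32 and OSCA-40, and the groups overlapped. The pair 7 and 8 had a log2 ratio to the gene sum of -2.13 ± 0.13 (SD, n = 8) in tissues and -2.25 ± 0.08 (n = 3) in cell lines. The difference of -0.12 did not pass (exact permutation test, p = 0.164, adjusted p = 0.164). DOS-71 was the lowest library with -2.42, and without it the difference was -0.16 and passed (exact permutation, adjusted p = 0.0250). With medians of bins it was -0.25 (adjusted p = 0.0545, exact permutation), and without OSCA-32 it was -0.078. This pair was picked in the same way, so its p-values are also given as a description.

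In the deposited values, the *CV* of single bins over the 11 libraries was lowest in inner bins of both genes and higher towards both ends. In *HNRNPL* it was lowest in bin 4 (0.114, jackknife SE 0.0207), followed by bin 5 (0.141, SE 0.0365) and bin 7 (0.157, SE 0.0220). From there it rose to 0.395 in bin 13 on the 3′ side and to 0.359 in bin 2 and 0.681 in bin 1 on the 5′ side. In *HNRNPR* it was lowest in bin 7 (0.141, SE 0.0358), with 0.160 in bin 8, 0.173 in bin 9 and 0.178 in bin 6, and highest in bin 3 (0.373, SE 0.108). Without DOS-71 and OSCA-32, bins 4 (0.124) and 7 (0.104) were again the lowest of *HNRNPL* and *HNRNPR*. Bins 1 and 2 of *HNRNPL* then had 0.428 and 0.188, bin 3 of *HNRNPR* had 0.217, and bin 10 (0.255) was the highest of *HNRNPR*. The median *CV* was 0.252 over the bins of *HNRNPL* and 0.245 over those of *HNRNPR*, against 0.549 over all 101533 bins with a mean of at least 10. The gene sums had a *CV* of 0.189 (SE 0.0303) and 0.182 (SE 0.0857). For *HNRNPR* most of it came from OSCA-32, since the *CV* was 0.0914 within the tissues and 0.0960 without that cell line.

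Within the 8 tissues the *CV* was 0.127 for bin 4, 0.166 for bin 5 and 0.138 for bin 7 of *HNRNPL*. For *HNRNPR* it was 0.139, 0.105, 0.0975 and 0.132 for bins 6 to 9. Which bin came first depended on the scaling. In *HNRNPL*, the lowest *CV* was that of bin 7 (0.157) after median-of-ratios scaling and that of bin 8 (0.177) with equal totals, where bin 4 had 0.167 and 0.208. In *HNRNPR*, bin 9 was the lowest under both scalings (0.191 and 0.219), where bin 7 had 0.199 and 0.247.

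**Figure D5:**
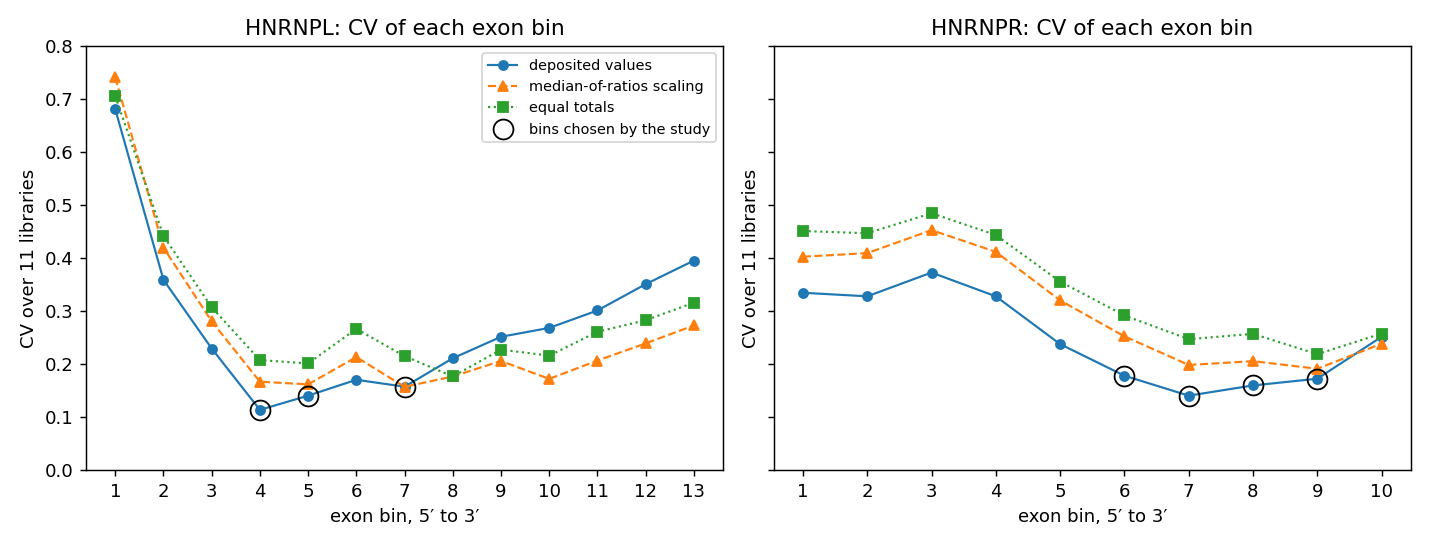
*CV* over the 11 libraries (y axis) of each exon bin (x axis, 5′ to 3′), in the deposited values (circles) and after median-of-ratios scaling (triangles) or scaling to equal totals (squares). Open rings mark the bins picked by the study, which have deposited *CV*s of 0.114 to 0.157 in *HNRNPL* and 0.141 to 0.178 in *HNRNPR*. Bin 1 of *HNRNPL* and bin 3 of *HNRNPR* vary most under all 3 scalings, and bin 8 of *HNRNPL* and bin 9 of *HNRNPR* are the lowest with equal totals.

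Bins were then compared for spread beyond counting error, as the variance of the share over that of binomial counting. The median ratio over the 11 libraries was 8.13 for the bins of *HNRNPL* and 2.77 for those of *HNRNPR*, against 1.84 over all bins tested. The ratio grows with the number of reads, and *HNRNPL* has more reads per bin. The highest values were those of bins 3 (30.4), 2 (28.0) and 13 (22.7) in *HNRNPL* and of bin 10 (20.6) in *HNRNPR*, which had 34.2 without DOS-71 and OSCA-32. Bins 6, 7 and 8 of *HNRNPR*, all among those picked by the study, were closest to counting with 1.30, 1.67 and 1.70. Bin 9, also picked, had 2.89, above the unpicked bins 1 (2.29) and 5 (2.65). The pick was for a low *CV* in a set that holds these libraries, so these values are a description. Without DOS-71 and OSCA-32, bin 7 of *HNRNPR* had a ratio of 0.461, which is less spread than counting gives on average. Binomial counting takes reads as independent, although a read that overlaps several bins counts in each.

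The bins of lowest median share were 1 (0.904%), 2 (4.35%) and 7 (4.73%) in *HNRNPL*, and 1 (2.10%), 2 (6.86%) and 4 (7.79%) in *HNRNPR*. The highest SD of the log odds over the 11 libraries belonged to bins 1 (2.34), 2 (0.52) and 3 (0.38) of *HNRNPL*, and to bins 3 (0.41), 10 (0.37) and 2 (0.35) of *HNRNPR*. Bins 1 and 2 of *HNRNPL* and bin 2 of *HNRNPR* were thus on both lists of their gene. The SD of bin 2 of *HNRNPR* was nevertheless below the median over all bins tested (0.44). The SD of bin 1 of *HNRNPL* rests largely on 0 reads in DOS-71 and OSCA-32. Without these libraries, bin 2 of *HNRNPL* had a *CV* of 0.188 (0.359 with them). The variance of its share was then 22.0 times that of counting (28.0 with them). Since a share also follows the length of its bin, a low share alone does not show that a bin is skipped. The median SD was 0.24 over the bins of *HNRNPL*, 0.26 over those of *HNRNPR* and 0.44 over all bins tested.

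Bin 1 of *HNRNPL*, the 5′ end of the annotated gene, was the most variable of all. It held 51 reads in 1033, 63 in 1091, 16 in 0320, 42 in 0460, 112 in DOS-119, 53 in DOS-126 and 96 in DOS-127. It held 109 reads in OSCA-30 and 192 in OSCA-40, and it was at 0 in DOS-71 and OSCA-32. With 1680 and 1967 reads on the gene, 0 reads allow a share of up to 0.179% and 0.153% (3 reads, counting error only), whereas the lowest share in the other 9 libraries was 0.488%. At that share, 8.20 and 9.60 reads would have been counted. Among 44376 bins with at least 20 reads in each of the other 9 libraries, 47 (0.106%) were also at 0 in both. Bin 1 of *HNRNPL* itself has 16 reads in 0320 and is not among those bins. In the other libraries its share was 0.488 to 1.33% in the 7 tissues and 1.86% and 1.68% in OSCA-30 and OSCA-40. Without the 2 shallow libraries its log odds differed by 1.19 (SE 0.43, limma, adjusted p = 0.106), against -0.28 (SE 1.47) with them.

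Bin 2 of *HNRNPL* held 2.51 to 7.38% in tissues, where DOS-71 was the highest, and 6.55%, 8.08% and 5.76% in OSCA-30, OSCA-32 and OSCA-40. Bin 3 held 7.40 to 15.8% in tissues, with DOS-71 again the highest, and 14.5 to 15.3% in cell lines. In *HNRNPR*, bin 1 held 1.88 to 3.50% in tissues and up to 3.36% in the cell lines, which all lay inside the range of the tissues. The variance of its share was 2.29 times that of counting. Bins 2, 3 and 4 were higher in all 3 cell lines than in the 7 tissues other than DOS-71. Bin 3, for example, held 5.79 to 9.19% in these tissues, 11.9% in DOS-71 and 10.6%, 11.1% and 10.7% in the cell lines. With DOS-71 included, the groups overlapped in each of these bins. OSCA-32 was kept in this split, and the share of all bins that separate in it was not determined.

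A bin that is skipped or added should stand out from its neighbours, which a gradient moves little; this measure was also chosen after the data were seen. Against the mean of both neighbours, the median SD over libraries was 0.671 times that of counting over all 69386 such bins. The counting value takes bins as independent, although a read that overlaps several bins counts in each. A ratio under 1 therefore does not by itself mark a steady bin. In *HNRNPR* this ratio was 0.331 to 1.09 in the 8 inner bins, the highest being bin 9 next to the large last bin. In *HNRNPL* it was over 2 in bins 2 (2.06), 8 (2.40) and 9 (2.14). Without DOS-71 and OSCA-32 it was 0.963 in bin 2 and 1.38 in bin 9, while bin 8 had 1.87, the highest of the 11. Bin 8 was singled out after its values had been seen.

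Relative to bins 7 and 9 (log2), bin 8 of *HNRNPL* was at -0.60 in DOS-71, -0.40 in DOS-126 and -0.22 in DOS-127. The other tissues had 0.08 in 1033, -0.02 in 1091, 0.07 in 0320, -0.04 in 0460 and 0.10 in DOS-119. In cell lines it was 0.07 in OSCA-30, -0.62 in OSCA-32 and -0.06 in OSCA-40. The variation was therefore found within both kinds of sample, whose means were -0.13 ± 0.26 (SD, n = 8) and -0.20 ± 0.37 (n = 3). The log odds of bin 8 differed by -0.13 (SE 0.21) between cell lines and tissues (limma, adjusted p = 0.690). Bin 8 held 69 reads in DOS-71 and 90 in OSCA-32, and 237 to 867 in the others.

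The pairs picked by the study were also compared bin against bin. The log2 ratio of bin 5 to bin 4 was between -0.22 (DOS-71) and 0.09 (0460), with an SD of 0.09 where counting gives 0.12. For bins 7 and 8 of *HNRNPR* it was between -0.40 (OSCA-30) and -0.17 (DOS-127), with an SD of 0.08 against 0.15 from counting. An SD below that of counting was found in 1 of 12 pairs of neighbours in *HNRNPL* and 7 of 9 in *HNRNPR*, so it is not particular to the picked pair of *HNRNPR*. The counting SD takes neighbouring bins as independent, although a read that overlaps both counts in each. An SD below it therefore does not show that a pair is unusually steady.

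The genes most like each member were taken from 46 genes whose symbols the study's lists pair with an identifier, by the SD over 11 libraries of the log2 ratio of gene sums. For *HNRNPL* these were *SRP68*, a component of the signal recognition particle (SD 0.14), *HNRNPM*, another splicing regulator of the hnRNP family (0.15), and *HNRNPUL1* (0.20). *SRP68* and *HNRNPM* ranked 1 and 2 also among 11986 genes with reads in every library, where the median SD was 0.77. For *HNRNPR* they were *USP16*, a deubiquitinase (0.17), *GTF3C2*, a subunit of the RNA polymerase III factor TFIIIC (0.21), and *NADK*, which makes NADP (0.22), at ranks 2, 6 and 8. The symbols come from genes chosen for low variation, so genes of other kinds had no name to be found by.

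Among the other RNA-binding proteins of those lists, 0 of 4 of the hnRNP family (*HNRNPUL1*, *HNRNPDL*, *HNRNPU* and *HNRNPM*) passed between cell lines and tissues in limma (adjusted p = 0.698 to 0.907). Their log2 differences were -0.15 to -0.07, with a median of -0.10, where the median over all genes was -0.37. Of 9 further mRNA processing factors, 1 passed (against 17% of all genes), *SRRT*, which acts in cap-dependent RNA processing and was lower in cell lines (log2 difference -0.93, SE 0.29, limma, adjusted p = 0.0460). The median of the 9 was -0.41, with *SMU1* the highest at 0.29. The study chose both lists for stability on these samples, so they are not independent evidence. Of 58 bins tested in the 4 hnRNP genes, 0 were higher and 4 lower in use in the cell lines, and of 123 bins in the 9 others, 5 were higher and 11 lower, against 3.61% higher and 3.39% lower over all bins. In such bulk samples, less RNA per cell and fewer cells of a type cannot be told apart.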

How the data were processed

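Poly(A) RNA of 8 tissues and 3 cell lines was sequenced with the TruSeq kit v2 on an Illumina HiSeq instrument. The authors demultiplexed with CASAVA 1.8.2 (per the submitters' processing notes), aligned to CanFam3.1 with TopHat, kept unique reads and used the DEXSeq scripts for counts per exon bin, where a read that overlaps several bins counts in each. The deposited values are this signal after division by 1 factor per library, whose method is not given in the sources used here. Division by the smallest step in each library (0.354 to 3.00) gave whole reads for all values (100%, tolerance 0.05 reads). The libraries held 3123757 to 24902774 such reads. Each library is a separate dog or culture.

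Gene sums and log odds of bins were tested over the whole table with limma 3.58.1 (trend, pseudocount 1, mean of at least 10, two-sided, Benjamini-Hochberg adjustment at 0.05) in R 4.3.3. Alternatives on the recovered reads were edgeR 4.0.16, which called 1790 genes between tissues and cell lines, and DESeq2 1.42.0. Ratios were tested by exact permutation (Python 3.11.15, scipy 1.17.1). The scripts were tested on simulated data. The members and lists were chosen with earlier results of these data known. The bins described singly were those picked by the study, the 3 per gene of lowest median share, the 3 of highest SD of log odds and any that passed a fit, bins 8 and 10 of *HNRNPL* were added after their values were seen, and the most alike genes were the 3 per member of smallest SD. *THRAP3*, also listed, was not paired with an identifier and is not analysed here. 1 further listed gene is not reported here. Gene positions were taken from the study's lists, bins of genes on the minus strand were read in reverse, and no sequences were used here.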

Additional observations from a re-analysis of the deposited data

Results flagged for a closer look

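Of 30 measures compared over the 8 tissues, 6 had 1 tissue whose gap to the nearest other tissue, divided by the range, was above Dixon's 95% critical value for 8 samples, where chance gives about 1 in 20 and measures of 1 gene are not independent. DOS-71 was the tissue in 4 of them. Its share of bin 2 of *HNRNPL* was 7.38% (next tissue 4.64%), its share of bin 1 of *HNRNPR* 3.50% (next 2.59%) and its share of bin 7 of *HNRNPR* 9.97% (next 11.9%). Its log2 ratio of bins 7 and 8 of *HNRNPR* to the gene sum was -2.42 (next -2.18). DOS-126 was the tissue in the other 2, with 15.3% for bin 12 of *HNRNPL* (next 12.6%) and a log2 ratio of bins 4 and 5 of *HNRNPL* to the gene sum of -3.26 (next -2.95). DOS-71 has the fewest reads and the lowest slope of the tissues (0.57), and DOS-126 has the highest slope (1.37). Their part in these values was not tested.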

How the results depend on the processing

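In 778 alternative values of 44 results, 684 kept the direction and side of the threshold or stayed within the spread, and the cause of the others was not tested except where the construction gives it. The gene sum difference of *HNRNPL* between tissues and cell lines reversed with median-of-ratios scaling (0.085), edgeR (0.11) and DESeq2 (0.071), and that of *HNRNPR* without DOS-71 and OSCA-32 (-0.12). Leaving out 1 library gave -0.28 to -0.11 and -0.13 to 0.30. Between kits, *HNRNPL* reversed with median-of-ratios scaling (0.021), equal totals (0.17), edgeR (0.019) and DESeq2 (0.017), and leaving out 1 tissue gave -0.13 to 0.14 and, for *HNRNPR*, -0.0047 to 0.14. The *CV* of the gene sum was 0.133 for *HNRNPL* with median-of-ratios scaling and 0.287 for *HNRNPR* with equal totals (0.0960 to 0.192 leaving out 1 library). The *CV* of the selected pair was 0.161 and 0.202 for *HNRNPL* and 0.200 and 0.250 for *HNRNPR* under these 2 scalings. The ratio of the pair of *HNRNPL* with medians of bins was 0.17, and that of *HNRNPR* was -0.16 to -0.078 leaving out 1 library.

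Genes past the threshold between tissues and cell lines were 1495 without both shallow libraries (against 2352) and 1529 to 2315 leaving out 1, lowest without OSCA-32. Between kits they were 0 without a filter and with edgeR, 139 with DESeq2 and 0 to 1 leaving out 1. Bins past the threshold (6993) were 15411 with pseudocount 10, 16469 without a filter, 271 with diffSplice, 44 with diffSpliceDGE, 15839 with library weights, 431 with the slope term, 3942 without both shallow libraries and 1991 (without OSCA-32) to 17506 (without DOS-71) leaving out 1. Between kits they were 5 with pseudocount 10, 1 with diffSplice, 1 with diffSpliceDGE, 2 with library weights and 0 to 1 leaving out 1. For *HNRNPL* they were 1 with a mean of at least 50 (bin 12, where 6036 of 35433 bins tested passed), 4 with library weights and 0 to 4 leaving out 1. For *HNRNPR* they were 2 with library weights and 0 to 2 leaving out 1.

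Bin 1 of *HNRNPL* reversed with pseudocount 10 (0.24), diffSpliceDGE (0.69), library weights (0.73), the slope term (0.91), without both shallow libraries (1.19) and leaving out 1 (-1.39 to 1.86). Bin 7 of *HNRNPL* reversed with library weights (-0.053), the slope term (-0.021) and without both shallow libraries (-0.044), bin 6 of *HNRNPR* with diffSplice (-0.010), and bin 9 of *HNRNPL* leaving out 1 (-0.28 to 0.014). With the slope term, bins 2, 3 and 4 of *HNRNPL* were at -0.048, -0.049 and -0.026, bins 1 to 5 of *HNRNPR* at -0.22, -0.23, -0.18, -0.077 and -0.039, and bins 9 and 10 at 0.028 and 0.19. No paired analysis was possible because, by breed and age, no cell line came from the same dog as a tissue.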
